A study of Arabidopsis thaliana with 57 samples.

Results

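Leaves of Arabidopsis thaliana plants that had been in contact with other plants for 1 h were compared with leaves of individual plants, by RNA sequencing, in 3 libraries per group. These 6 libraries were chosen by their labels, as all libraries of the 2 groups, and are 6 of the 57 libraries of the series. Another group, after 1 week of contact, has 3 libraries in the same table, and its levels are given beside the others without a test. Per the labels, all plants were wild type (Col-0), 4 to 5 weeks old, and grown at 50 µmol photons per square metre and second, with 10 h of light at 22 °C and 14 h of dark at 20 °C. Each library pooled leaves of 10 to 15 plants. Leaves in contact set-ups were wetted with 0.05 M phosphate buffer of pH 7.4 with 0.01% Silwet L-77, a wetting agent, and 0.05% agarose. The sample records give this solution for both groups alike. They do not say whether individual plants received it, so contact and the solution cannot be told apart. The labels used here give neither the time of day at harvest nor growth or sequencing batches.

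Mechanical stimulation of a leaf opens calcium-permeable channels within moments. The resulting calcium signal is read by calmodulins, calmodulin-like proteins and calcium-dependent kinases, and pumps return the ion to the vacuole, the endoplasmic reticulum or the outside. The cell wall is the first structure that touch deforms. Receptor kinases in the plasma membrane bind wall polymers or secreted peptides, and enzymes such as the xyloglucan endotransglucosylases remodel the wall. Touch, jasmonate and salicylate markers are left aside here as far as possible, and what follows is about the other genes that changed within the first hour.

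The deposited values were FPKM, fragment counts scaled by transcript length and by the number of mapped fragments. They summed to between 749715 and 786807 in the 6 libraries, and between 16418 and 16628 genes reached an FPKM of 1. The number of fragments is not given; the steps between low values put the depth of the 6 libraries at 0.74 to 1.14 of that of individual replicate 1. Over 11825 genes with a mean of at least 5 and no value of 0, replicates of these 2 groups had a Pearson r of 0.9895 to 0.9937 across genes, a description, since genes do not replicate each other. The touch gene TCH4 was at 9.5, 8.64 and 9.69 FPKM in individual plants and at 173.0, 172.0 and 164.0 FPKM after 1 h. It is itself one of the genes that changed in this comparison, so it is no independent check of the labels. Leaf identity was clear from markers. All 12 seed and flower markers stayed under 1 FPKM in all 6 libraries, as did 6 of 8 root markers, while 7 mesophyll markers summed to between 61100 and 65100 FPKM in individual plants and to between 60900 and 61400 FPKM after 1 h. Of the 7 phloem, 6 epidermal and 4 trichome markers tested none was called. The mesophyll marker RCA was lower by 0.12 and the root marker SCR higher by 0.27 (log2), and 1 of 7 guard cell markers was called, KAT1, a potassium channel, which was higher by 0.32 (log2, adjusted p = 0.00981). The summed guard cell markers were at 1320 to 1360 FPKM in individual plants and at 1510 to 1560 FPKM after 1 h, and their part in the results below was not tested. In whole leaves, fewer cells of a type and less RNA per cell cannot be told apart.

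Contact for 1 h was followed by more and larger rises than falls. Of 17177 genes tested, 2533 (14.7%) were called at an adjusted p under 0.05 (limma, Benjamini-Hochberg over all genes tested). There were 1549 genes called higher (9.02%) and 984 called lower (5.73%). With 1 library left out the lower calls numbered 590 to 870, the fewest without contact_1h replicate 3. The size of the change had a median of 0.608 among those that rose and of 0.279 among those that fell, on the log2(FPKM + 1) scale used for all fold changes, which understates the change of low genes. At a change of at least 1 (log2), 383 genes rose (2.23%) and 12 fell (0.0699%). The median over all genes tested was -0.02. The labels call the replicates biological, and p-values measure the spread between these pools of plants.

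**Figure D1:**
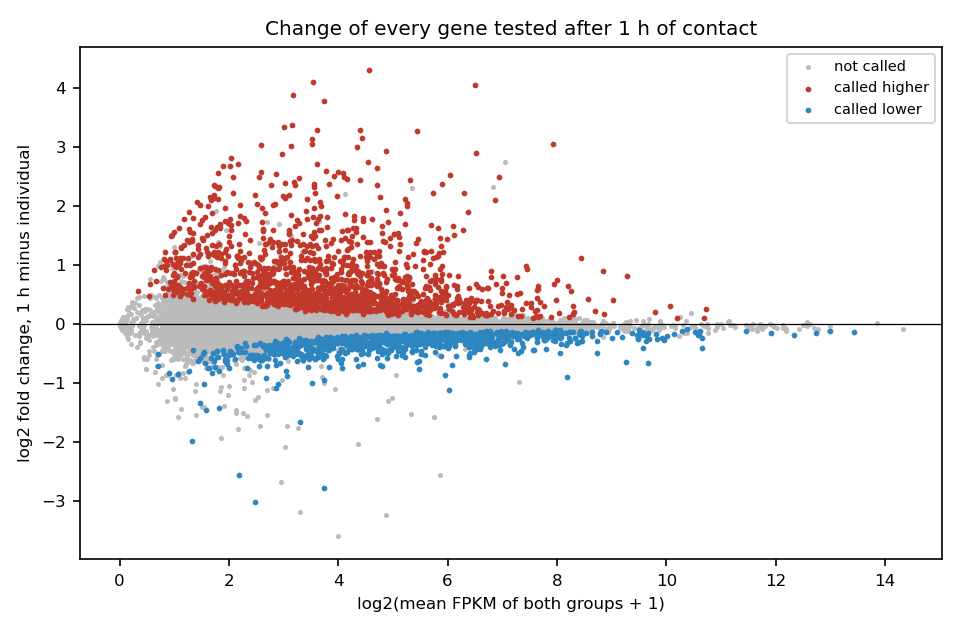
Change of each of the 17177 genes tested after 1 h of contact (vertical axis, log2 fold change on log2(FPKM + 1)) against its level (horizontal axis, log2 of the mean FPKM of both groups + 1). Red points are the 1549 genes called higher, blue points the 984 called lower and grey points those not called; the red points reach 4.31 and the blue points -3.02.

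The 15 largest rises outside the touch, jasmonate and salicylate markers included a wall enzyme gene (XTH18), a calcium-dependent kinase gene (CPK28), 2 mitochondrial carrier genes (DIC2 and UCP5), a tetraspanin gene (TET8), a syntaxin gene (SYP122) and an immune receptor gene (AT5G41750). Members of gene families that lie side by side or share long stretches, such as XTH18 and XTH19, GSTF6 and GSTF7, AZI1 and EARLI1 or the CRK genes, may exchange reads, so values of single members are less certain. Whether reads were counted by strand is not given in the sources used here, so overlapping genes may share reads too. XTH18 (AT4G30280, chromosome 4, 14825757 to 14827211, minus strand, TAIR10.1), a xyloglucan endotransglucosylase/hydrolase, was at 0.21, 0.189 and 0.0353 FPKM in individual plants. After 1 h it stood at 15.8, 15.2 and 16.7 FPKM, a rise of 3.89 ± 0.12 (log2, SE, adjusted p = 6.31e-09). The groups were far apart in all 6 libraries, and after 1 week the gene was at 1.28 to 1.87 FPKM. TET8 encodes a tetraspanin, a membrane protein known from plant extracellular vesicles. It was at 20.6, 21.5 and 19.8 FPKM in individual plants and at 164.0, 158.0 and 159.0 FPKM after 1 h, 7.78-fold higher (log2 change 2.9 ± 0.04 SE, adjusted p = 4.16e-11). At 161.0 FPKM it had the highest mean after 1 h of the 15 named rises. SZF1, a zinc finger gene, went from 5.59, 5.83 and 5.85 FPKM to 49.8, 52.8 and 50.0 FPKM. The purine permease gene PUP18 rose by 2.66 ± 0.11 (log2, SE) and the late embryogenesis abundant family gene AT2G27080 by 3.06 ± 0.12. Less is known of AT1G07135, a glycine-rich protein gene, which rose from between 0.645 and 0.902 FPKM to between 23.1 and 24.7 FPKM. A pair of mitochondrial carrier genes were among these rises: DIC2, a dicarboxylate carrier, went from between 1.09 and 1.48 FPKM to between 19.7 and 22.0 FPKM, and UCP5 from between 3.27 and 3.77 FPKM to between 33.8 and 36.5 FPKM. Of 39 mitochondrial carrier genes tested, a list added after values were seen, these 2 rose, 2 fell (1 or none with any 1 library left out) and 35 were not called. The rises and the falls were each 5.13% of the list, against 9.02% and 5.73% of all genes tested.

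Promoters of the genes that rose were read as the 300 bases before each annotated start in TAIR10.1 (RefSeq), and 6 short motifs were counted on either strand. CGCGTT and ACGCGT are forms of the element bound by calmodulin-binding transcription activators, and they overlap in ACGCGTT. The first of them was in 40 of 377 promoters of genes called higher by at least 1 (10.6%), in 3 of the promoters of the 100 largest falls called (3.0%) and in 539 of the 16507 promoters of protein-coding genes tested (3.27%). For the second the shares were 10.1%, 1.0% and 2.07%. At least 1 of these 2 motifs was in 14.1% of the promoters of genes that rose and in 4.13% of all. GTTGACT, a core of the WRKY site, was in 8.22% of the promoters of rises, 7.0% of those of falls and 4.66% of all. GCCGCC, the site of ethylene response factors, was in 2.92%, 1.0% and 2.42%, and CACGTG, the G-box, in 7.96%, 6.0% and 8.15%. AATATCT, a core of the evening element, was in 16.7%, 14.0% and 11.9%. These shares are descriptions with no test, and a match is not a site. Touch, jasmonate and salicylate markers were not taken out of these sets. Of those 3 lists, 19, 17 and 8 members were called higher by at least 1. Of the 15 largest rises, 3 held CGCGTT in this window: XTH18, DIC2 and AT2G24600, an ankyrin repeat gene that went from between 2.82 and 3.92 FPKM to between 36.4 and 39.7 FPKM. The window of DIC2 overlaps a neighbouring gene. The other 2 are shown because they carry the motif beside large rises. They are written 5′ to 3′ on the strand of the gene, with matches to the 6 motifs, on either strand, in capitals; the windows are chr4:14827212-14827511 (minus strand) and chr2:10454594-10454893 (minus strand). In XTH18 the first base of the match lies 76 bases before the start. In AT2G24600 CGCGTT begins 98 bases and GTTGACT 59 bases before the start.
XTH18: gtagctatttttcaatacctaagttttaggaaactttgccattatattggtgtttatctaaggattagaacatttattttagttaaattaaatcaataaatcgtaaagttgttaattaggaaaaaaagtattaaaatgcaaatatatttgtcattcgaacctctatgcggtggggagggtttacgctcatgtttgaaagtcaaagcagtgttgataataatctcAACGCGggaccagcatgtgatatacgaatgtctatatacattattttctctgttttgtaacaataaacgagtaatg
AT2G24600: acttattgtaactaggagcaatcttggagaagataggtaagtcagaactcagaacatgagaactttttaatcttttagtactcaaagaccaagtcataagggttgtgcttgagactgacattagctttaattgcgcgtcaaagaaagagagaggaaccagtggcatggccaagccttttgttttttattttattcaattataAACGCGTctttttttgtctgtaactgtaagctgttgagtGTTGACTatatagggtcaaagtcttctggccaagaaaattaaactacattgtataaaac

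Most lists of genes for the making and remodelling of the wall had more members called higher than lower. The same held over all genes tested, at 9.02% and 5.73%. Among expansins 6 of 19 tested fell and 3 rose, and in the lignin pathway 7 of 28 fell and 1 rose. Of 18 xyloglucan endotransglucosylase/hydrolase genes tested, 9 rose (50.0%), 3 fell (16.7%) and 6 were not called, with a median change of 0.49. The rises include TCH4, which is also a touch marker. Beside XTH18, XTH16 went from 3.88, 4.03 and 4.44 FPKM to 10.5, 10.3 and 9.76 FPKM, and XTH24 from 36.2, 37.9 and 39.6 FPKM to 67.5, 66.5 and 71.4 FPKM. After 1 week XTH24 was at 81.0 to 85.1 FPKM and XTH16 at 3.05 to 6.48 FPKM. XTH4, a highly expressed member named here after its values were seen, went from 78.4 to 82.3 FPKM to 137.0 to 144.0 FPKM. XTH31 went the other way, from 124.0 ± 1.67 FPKM (SD, n = 3) to 82.8 ± 2.66 FPKM (SD, n = 3) (-0.58 ± 0.04, SE, adjusted p = 6.09e-07). So the family held members on both sides, without overlap of the groups in the members named. 15 of its 33 members were not tested because they stayed under the FPKM filter.

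Expansins loosen the wall without cutting it. Of 19 tested, 3 rose (15.8%), 6 fell (31.6%) and 10 were not called. The rises were led by the expansin-like genes EXLA1, at 16.1, 17.8 and 18.9 FPKM in individual plants and 86.8, 83.3 and 89.1 FPKM after 1 h, and EXLA2, which went from 3.79 to 3.91 FPKM to 11.5 to 12.4 FPKM. All 6 that fell were alpha- or beta-expansins. EXPA8 was at 166.0, 158.0 and 162.0 FPKM and then at 104.0, 106.0 and 95.6 FPKM (-0.67 ± 0.05, SE, adjusted p = 2.11e-06). EXPA1, the most highly expressed of those that fell and named after its values were seen, went from between 472.0 and 506.0 FPKM to between 345.0 and 367.0 FPKM. The fall of EXP3 (-0.59 ± 0.14, SE, adjusted p = 0.0161) lost its call in 4 of 15 alternative settings.

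Of 73 glycosyltransferase and cellulose synthase complex genes tested, 29 rose (39.7%), none fell (1 with quantile normalization) and 44 were not called. The rises numbered 23 to 28 with any 1 library left out. The enzymes that make xyloglucan were among them: CSLC04, which makes its glucan backbone, went from 28.7, 24.9 and 27.8 FPKM to 66.7, 68.7 and 61.5 FPKM. XT1, a xylosyltransferase that adds the side chains, went from 5.98, 4.69 and 4.98 FPKM to 16.8, 15.4 and 15.8 FPKM. Its relative XXT5 rose by 0.72 ± 0.06 (log2, SE, adjusted p = 1.05e-05). LGT8 and LGT9, of glycosyltransferase family 8, rose by 1.27 ± 0.1 and 0.94 ± 0.07. Cellulose synthases of the primary wall rose by less: CESA5 by 0.63 ± 0.08, CESA2 by 0.5 ± 0.08, CESA6 by 0.47 ± 0.08, CEV1 (cellulose synthase 3) by 0.25 ± 0.06 and CESA1 by 0.2 ± 0.06 (adjusted p = 0.0428). Of 2 subunits of the secondary wall, CESA4 changed by 0.12 ± 0.1 and IRX3 by 0.04 ± 0.17, and neither was called.

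**Figure D2:**
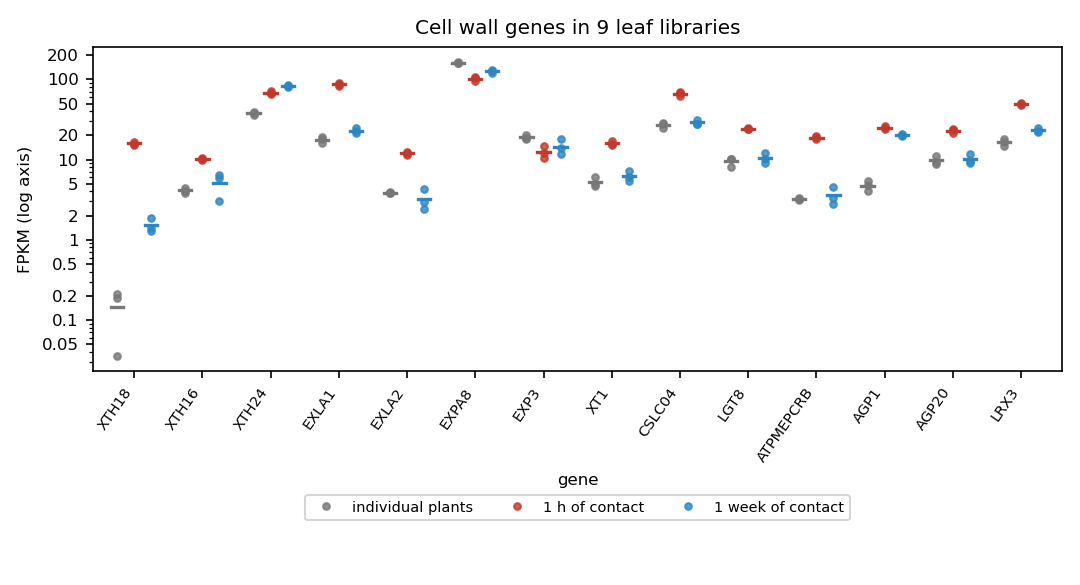
FPKM (log axis) of 14 cell wall genes in individual plants (grey), after 1 h of contact (red) and after 1 week of contact (blue). Each point is 1 library and each bar the mean of 3; the red points lie above the grey ones in all genes but EXPA8 and EXP3, where they lie below.

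Pectin genes moved both ways. Of 80 tested, 14 rose (17.5%, against 9.02% of all genes tested), 9 fell (11.2%, against 5.73%) and 57 were not called. With any 1 library left out the rises numbered 10 to 13 and the falls 6 or 7. A pectin methylesterase, ATPMEPCRB, showed the largest change, from 3.3, 3.23 and 3.13 FPKM to 19.4, 18.9 and 17.9 FPKM (2.22 ± 0.12, SE, adjusted p = 2.74e-07), and was at 2.81 to 4.57 FPKM after 1 week. PGIP1, which inhibits fungal polygalacturonases, rose by 0.89 ± 0.1. Arabinogalactan and other structural wall proteins had 18 of 59 members rise (30.5%) and 5 fall (8.47%), the falls numbering 2 or 3 with any 1 library left out. AGP1 went from 4.02, 5.36 and 4.84 FPKM to 24.5, 24 and 26.0 FPKM and was still at 19.9 to 20.6 FPKM after 1 week. LRX3, a leucine-rich repeat extensin that binds RALF peptides, went from 17.8, 16.7 and 14.6 FPKM to 51.2, 49.7 and 48.5 FPKM. Its 1-week level, 22.1 to 24.6 FPKM, lay between the other 2 groups. Callose genes stayed where they were for the most part: 1 of 23 rose, BG_PPAP, a plasmodesmal beta-1,3-glucanase, by 0.25 ± 0.05. The wound callose synthase GSL05 was at 8.74, 5.63 and 9.21 FPKM and then at 10.1, 11.3 and 9.6 FPKM, and was not called (0.38 ± 0.14, SE, adjusted p = 0.114). In the lignin pathway 1 of 28 genes rose, PAL1, the entry enzyme (0.28 ± 0.05), and 7 fell (25%), with CYP98A3 at -0.31 ± 0.05. That count of 7 was 3 without contact_1h replicate 1, 4 without contact_1h replicate 2 or individual replicate 1 or 3, and 8 with a filter at an FPKM of 5.

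In each of the 4 calcium lists more members were called higher than lower, as over all genes tested (9.02% higher and 5.73% lower). Of 56 channels, pumps and exchangers tested, 15 rose (26.8%), 2 fell (3.57%, and none without contact_1h replicate 3 or individual replicate 1) and 39 were not called. The rises numbered 12 or 13 with any 1 library left out. Calcium pumps of the autoinhibited class led: ACA1 went from 12.9, 9.6 and 11.4 FPKM to 65.5, 67.0 and 65.2 FPKM (2.45 ± 0.09, SE, adjusted p = 1.2e-08). ACA11, a pump of the vacuole, went from 10.3, 9.1 and 10.0 FPKM to 22.7, 23.1 and 22.7 FPKM. ACA10 rose by 0.86 ± 0.06, whereas ACA8 changed by 0.11 ± 0.13 and was not called. After 1 week ACA1 was at 13.3 to 15.0 FPKM and ACA11 at 11.5 to 11.7 FPKM. Among cyclic nucleotide-gated channels CNGC11 rose by 0.88 ± 0.07. CNGC19, a channel of the wound calcium signal named after its values were seen, went from between 0.0635 and 0.28 FPKM to between 1.33 and 1.53 FPKM. Of 2 related mechanosensitive channel genes, MCA2 rose by 0.47 ± 0.09 (adjusted p = 0.00481), whereas MCA1 was not called. MCA1 changed by 0.19 ± 0.06 (adjusted p = 0.0517), MSL10 by -0.11 ± 0.1 and GLR3.3, of the wound signal, by -0.04 ± 0.07, none of them called.

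Calcium-dependent kinases and their relatives had 16 of 54 members rise (29.6%) and 3 fall (5.56%, and 1 without contact_1h replicate 1), and 35 were not called. CPK28, a calcium-dependent kinase that limits immune signalling through turnover of the kinase BIK1, showed the largest change. It was at 7.1, 7.05 and 7.06 FPKM in individual plants and at 77.1, 77.4 and 78.7 FPKM after 1 h (3.29 ± 0.06, SE, adjusted p = 4.66e-11). The 3 values within each group were nearly equal and the groups lay 11.0-fold apart, while the 1-week libraries were at 9.86, 10.9 and 11.0 FPKM. CPK32 went from 11.1, 10.2 and 12.2 FPKM to 43.4, 48.4 and 44.2 FPKM. CPK5 and CPK6, which phosphorylate the oxidase RBOHD, rose by 0.67 ± 0.04 and 1.07 ± 0.07. Of 15 calmodulins and calmodulin-like proteins tested, 8 rose (53.3%) and none fell, and this list shares members with the touch markers. Outside those markers, CAM2 rose by 0.77 ± 0.08 and CAM9 by 0.61 ± 0.03, whereas CAM5 changed by -0.04 ± 0.05 and CAM7 by -0.05 ± 0.08, without a call. Genes for calmodulin-binding proteins had 19 of 53 members rise (35.8%) and 2 fall (3.77%, and 1 with any 1 library left out), 32 were not called, and that list shares SARD1 and CBP60G with the salicylate markers. EDA39 went from between 9.9 and 11.0 FPKM to between 29.9 and 31.9 FPKM. Of the transcription activators that bind CGCG elements, 3 rose: AT2G22300 (CAMTA3, also SR1) by 0.92 ± 0.07, AT1G67310 by 0.52 ± 0.07 and AT5G64220 by 0.42 ± 0.09. Another, EICBP.B (CAMTA1), changed by 0.08 ± 0.08 and was not called.

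In each class of cell surface receptors some members rose and none was called lower, though many were not called. Over all genes tested 9.02% were called higher and 5.73% lower. Under the alternatives 1 lower call appeared among cysteine-rich receptor kinases (without the filter or without a trend in the variance), lectin receptor kinases (quantile normalization) and receptor-like proteins (without contact_1h replicate 1). Wall-associated kinases, which bind pectin, had 5 of 8 members rise (62.5%). WAK1 went from 18.3, 17.4 and 18.2 FPKM to 36.3, 35.5 and 38.3 FPKM and was at 28.6 to 29.8 FPKM after 1 week. In WAK2 the step was smaller, from 19.5 to 22.0 FPKM to 31.6 to 32.9 FPKM. Of 6 receptors of the FERONIA family tested, 2 rose. THE1, a sensor of cellulose synthesis, went from 9.55, 7.47 and 8.56 FPKM to 20.1, 19.1 and 20.3 FPKM (1.13 ± 0.08, SE, adjusted p = 3.01e-06). FER, a receptor of RALF peptides, went from 44.4, 41.2 and 44.5 FPKM to 66.9, 68.4 and 68.9 FPKM. HERK1 changed by 0.07 ± 0.09 and was not called. Among secreted peptides 4 of 34 rose (11.8%) and 1 fell (2.94%), shares close to those over all genes. Of these, RALFL33 rose by 0.74 ± 0.08 and RALFL22 by 0.86 ± 0.07, both RALF peptides, and RGF9 fell by 0.35 on the log2 scale.

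Cysteine-rich receptor kinases had 13 of 25 members rise (52.0%), with CRK10 going from 16.1, 16.0 and 17.4 FPKM to 56.7, 56.1 and 54.1 FPKM. CRK41 rose by 1.04 ± 0.07 and CRK12 by 1.47 ± 0.13. Lectin receptor kinases rose in 11 of 39 cases (28.2%, and 8 to 11 cases with any 1 library left out), each by less than 1 (log2). Receptor-like proteins rose in 8 of 31 (25.8%), a count that ranged from 4, with a filter at an FPKM of 5, to 10, and was 5 without contact_1h replicate 1 or 2. Among the 8 is their partner kinase SOBIR1, the only member called higher by at least 1 (log2). SOBIR1 went from 15.9, 13.4 and 16.9 FPKM to 43.2, 46.8 and 42.1 FPKM. RLP34, RLP51 and RLP31 rose by 0.73, 0.46 and 0.34 (log2). Of 26 genes of immune receptor complexes tested, 13 rose (50.0%). RBOHD, the plasma membrane oxidase that makes superoxide, went from 7.72, 7.38 and 7.45 FPKM to 28.0, 30.1 and 29.8 FPKM (1.83 ± 0.06, SE, adjusted p = 6.37e-09), and was at 9.92 to 10.3 FPKM after 1 week. The coreceptor SERK4 rose by 1.22 ± 0.06 and its relative BAK1 by 0.25 ± 0.07 (adjusted p = 0.0325). BIR1, which holds BAK1 back, rose by 1.32 ± 0.12. The flagellin receptor FLS2 was at 3.32, 2.66 and 3.11 FPKM and then at 3.34, 4.06 and 3.54 FPKM, and the chitin receptor CERK1 changed by 0.15 ± 0.1. Neither of these 2 was called.

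**Figure D3:**
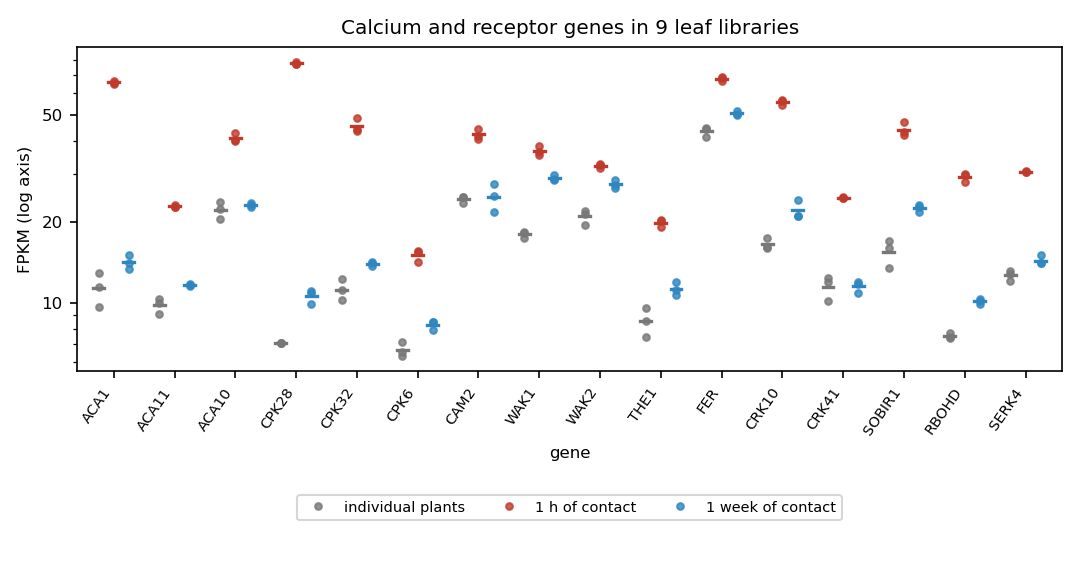
FPKM (log axis) of 16 calcium and receptor genes in individual plants (grey), after 1 h of contact (red) and after 1 week of contact (blue). Each point is 1 library and each bar the mean of 3; the red points of each gene lie above its grey points, with CPK28 11.0-fold higher.

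Several groups behind the receptors were looked at after values were seen, and their counts are descriptions. Intracellular NLR immune receptors rose in 49 of 101 cases (48.5%, against 9.02% of all genes tested) and none fell. Their rises numbered 39 to 49 with any 1 library left out, and those of the MAP kinase list below 11 to 14. AT5G41750 went from between 0.735 and 0.985 FPKM to between 12.5 and 13.3 FPKM, and ADR1-L2, a helper receptor, from between 8.27 and 8.52 FPKM to between 26.9 and 28.8 FPKM. MAP kinase cascade genes had 14 of 39 members rise (35.9%) and 2 fall (5.13%, and 1 without contact_1h replicate 1 or 2 or any 1 individual replicate). MPK3 went from 26.4, 25.8 and 28.2 FPKM to 131.0, 128.0 and 129.0 FPKM, while MPK6, which acts in the same cascade, changed by 0.01 ± 0.05. MKK4, which activates both, rose by 1.04 ± 0.1. Secretion genes rose in 11 of 49 cases (22.4%), led by the plasma membrane syntaxins SYP122, at 4.68, 5.58 and 4.85 FPKM and then 40.4, 41.2 and 38.0 FPKM, and SYP121, at 7.6 to 8.28 FPKM and then 25.4 to 26.3 FPKM. EXO70B2, an exocyst subunit, rose by 1.25 ± 0.11. Ubiquitin ligase genes rose in 13 of 39 cases (33.3%), with XBAT34 at 2.6 ± 0.17.

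**Figure D4:**
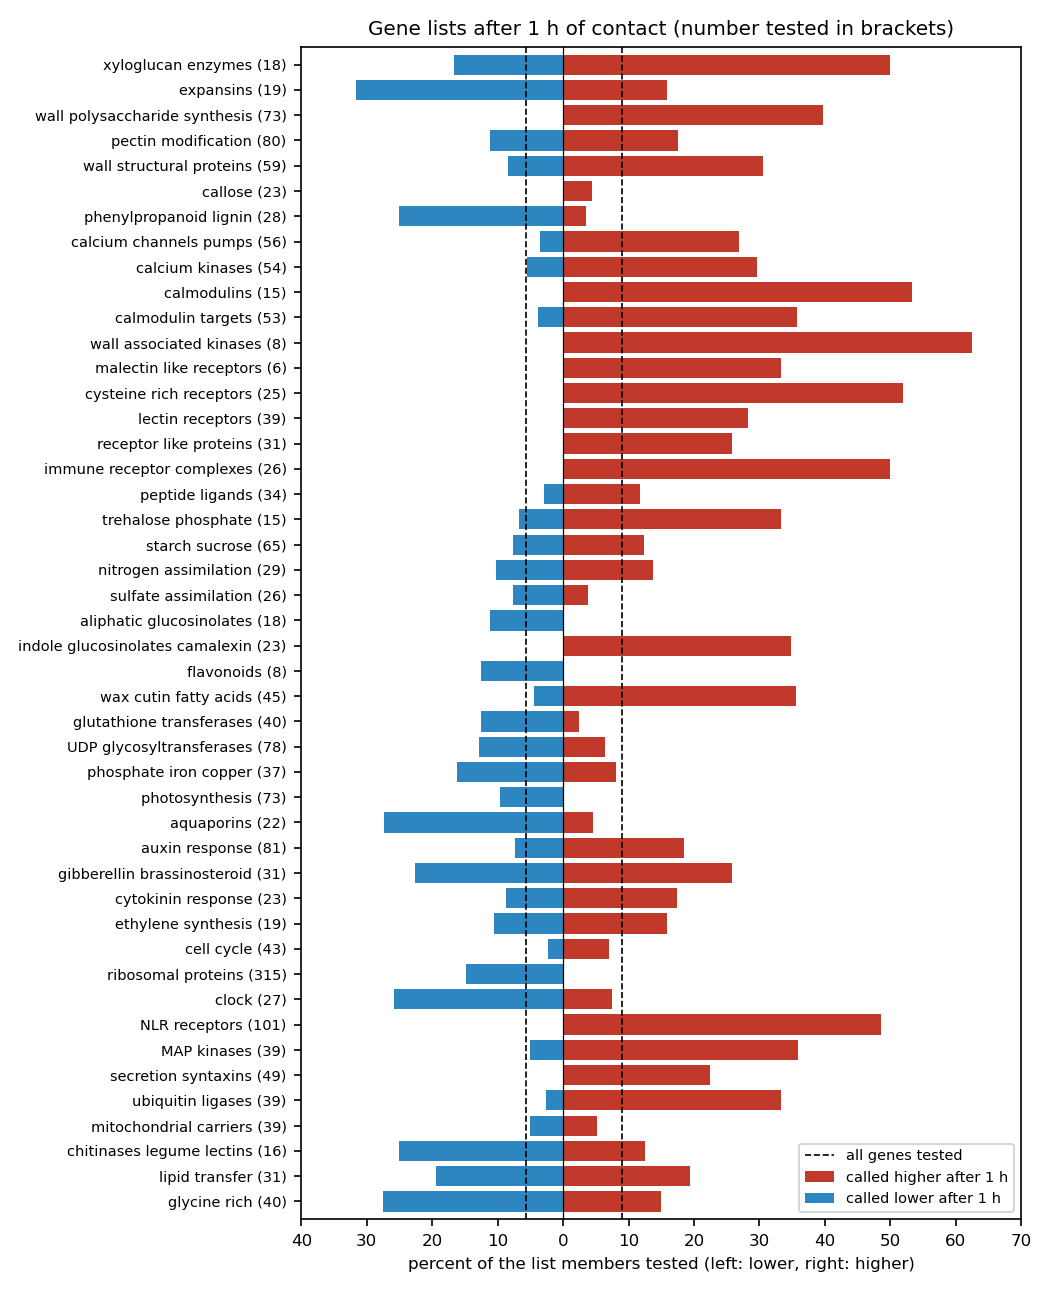
Percent of the tested members of each gene list called higher (red, to the right) or lower (blue, to the left) after 1 h of contact, with the number tested in brackets; the dashed lines are the shares over all genes tested, 9.02% higher and 5.73% lower. Wall-associated kinases reach 62.5% to the right, and expansins, at 31.6%, glycine-rich proteins, at 27.5%, and aquaporins, at 27.3%, reach furthest to the left.

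Metabolic genes moved in both directions, and the shares called were near those over all genes for starch, sucrose and nitrogen but above them on the rising side for indole glucosinolates and waxes. TPPG, a trehalose phosphate phosphatase, went from 3.31, 3.49 and 3.22 FPKM to 10.6, 13.2 and 11.6 FPKM, and 5 of 15 genes of its list rose (33.3%) and 1 fell. The rises numbered 3 without contact_1h replicate 1 or 2 and 2 without individual replicate 2, and there was no fall with any 1 library but contact_1h replicate 2 left out. Starch and sucrose genes had 8 of 65 members rise (12.3%) and 5 fall (7.69%). The 4 named by the rule were all transporters: SUC1, a sucrose symporter, went from 30.5 to 32.0 FPKM to 59.1 to 63.7 FPKM, SUT2 rose by 0.91 ± 0.09, and the hexose transporters STP1 and STP4 rose by 0.73 ± 0.05 and 0.49 ± 0.08. The 8 rises numbered 4 without contact_1h replicate 3 and 5 without contact_1h replicate 2. The 5 falls numbered 8 without individual replicate 2 and 3 without contact_1h replicate 1 or 2 or individual replicate 1 or 3. Nitrate reductase genes rose as a pair. NIA2 went from 252.0, 231.0 and 259.0 FPKM to 356.0, 364.0 and 375.0 FPKM, and NIA1 from between 141.0 and 159.0 FPKM to between 187.0 and 200.0 FPKM. ASN1, an asparagine synthetase, rose by 0.47 ± 0.05. Over the 29 nitrogen genes tested, 4 rose (13.8%) and 3 fell (10.3%, and 1 without contact_1h replicate 1).

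Indole and aliphatic glucosinolates are defence compounds made from tryptophan and methionine. Of 23 genes for indole glucosinolates and camalexin, 8 rose (34.8%) and none fell (1 without individual replicate 3). MYB51, a regulator of the indole branch, went from 3.46, 2.67 and 3.64 FPKM to 11.2, 11.8 and 12.5 FPKM. PEN3, a transporter of their products, went from between 30.2 and 37.8 FPKM to between 82.4 and 84.5 FPKM, and SOT16, a sulfotransferase, rose by 0.75 ± 0.08. Of 18 aliphatic glucosinolate genes none rose and 2 fell, and the count of falls ranged from 1, among others without contact_1h replicate 2 or 3 or individual replicate 1, to 9, with only the 6 libraries compared. Their regulator MYB28 was at 45.2, 43.4 and 47.0 FPKM and then at 39.2, 35.4 and 33.6 FPKM (-0.32 ± 0.1, SE, adjusted p = 0.0468), a call lost in 9 of 15 alternatives. CYP79F1, an enzyme of the same branch, changed by -0.17 ± 0.09 and was not called. In wax, cutin and fatty acid genes 16 of 45 rose (35.6%) and 2 fell (4.44%, and none without contact_1h replicate 1 or 2, and 1 with any other library left out). GPAT3, an acyltransferase, went from 13.3, 13.4 and 11.9 FPKM to 59.6, 60.1 and 58.3 FPKM. MYB96, which drives wax synthesis, rose by 0.85 ± 0.07, and KCS8, an elongase of very long fatty acids, by 0.83 ± 0.06. Flavonoid genes had no rise and 1 fall among 8 tested: TT5, chalcone isomerase, was at 7.73, 9.89 and 8.36 FPKM and then at 6.3, 6.15 and 6.29 FPKM (-0.41 ± 0.1, SE, adjusted p = 0.016). The list had no fall without contact_1h replicate 2 or individual replicate 2, and TT4, chalcone synthase, changed by -0.08 ± 0.05 without a call.

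Growth hormone genes moved in both directions. In ethylene synthesis ACS6 and ACS11, which make the precursor ACC, went from between 5.78 and 7.46 FPKM to between 25.5 and 27.1 FPKM and from between 1.55 and 2.44 FPKM to between 14.1 and 14.8 FPKM. Gibberellin and brassinosteroid genes had 8 of 31 members rise (25.8%) and 7 fall (22.6%). The named rises, EXO, EXL2 and EXL5 beside the touch marker PHI-1, belong to the EXORDIUM family of secreted proteins; EXO itself is also a touch marker. GA2OX2 and GA2OX6, which inactivate gibberellins, were named after values were seen; they rose by 1.64 ± 0.16 and 1.81 ± 0.16 from means under 1 FPKM. CPD and BR6OX2, enzymes of brassinosteroid synthesis also named after values were seen, fell by 0.42 and 0.69 on the log2 scale. Of 81 auxin genes 15 rose (18.5%), with IAA6 at 1.35 ± 0.23, and 6 fell (7.41%). The falls numbered 2 without contact_1h replicate 2 or 3 or individual replicate 1 or 3. Of 23 cytokinin genes 4 rose (17.4%, and 2 to 4 with any 1 library left out) and 2 fell (8.7%). CKX4, which degrades cytokinins, went from 1.87, 3.02 and 2.98 FPKM to 7.34, 8.35 and 8.92 FPKM. The rises of LOG1, RR5 and ARR7, of the same list, were smaller, at 0.4, 0.4 and 0.36 (log2). Of 43 cell cycle genes 3 rose (6.98%, and 1 or none with any 1 library left out). In the other direction 1 fell (2.33%, and 2 without contact_1h replicate 3 or individual replicate 1). Both shares were below those over all genes tested, 9.02% and 5.73%. The gene that fell was KRP2, an inhibitor of cyclin-dependent kinases, from 8.05, 6.85 and 7.01 FPKM to 3.58, 2.59 and 4.24 FPKM.

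Falls were smaller than rises. AZI1 (AT4G12470, chromosome 4, 7401087 to 7401951, minus strand, TAIR10.1) encodes a lipid transfer protein of systemic immunity. It was at 21.5, 21.6 and 23.5 FPKM in individual plants and at 2.45, 1.93 and 2.83 FPKM after 1 h, 9.24-fold lower (-2.78 ± 0.1, SE, adjusted p = 1.48e-08). After 1 week it stood at 7.61, 8.58 and 8.65 FPKM. The neighbouring EARLI1, named after its values were seen, went from 2.88, 2.94 and 3.07 FPKM to 0.685, 0.7 and 0.36 FPKM. In the list of lipid transfer proteins, added after values were seen, 6 of 31 rose (19.4%, and 3 without contact_1h replicate 2 or individual replicate 1). Another 6 fell (19.4%, and 3 without contact_1h replicate 3 or individual replicate 1). Over all genes tested the shares were 9.02% and 5.73%. A single gene had a larger estimate: AT1G70335, a short gene of unknown function, was at 12, 7.31 and 7.19 FPKM and then under 1 FPKM in each library (-3.02 ± 0.57, SE, adjusted p = 0.00397). Its 1-week libraries ran from 0.227 to 7.45 FPKM, so it also varied within a group. The promoter of AZI1 is shown for comparison with the rises above, as the largest fall with a gene symbol. Its window, chr4:7401952-7402251 (minus strand), holds AATATCT 280 and 49 bases before the start, in capitals, and no match to the other 5 motifs.
AZI1: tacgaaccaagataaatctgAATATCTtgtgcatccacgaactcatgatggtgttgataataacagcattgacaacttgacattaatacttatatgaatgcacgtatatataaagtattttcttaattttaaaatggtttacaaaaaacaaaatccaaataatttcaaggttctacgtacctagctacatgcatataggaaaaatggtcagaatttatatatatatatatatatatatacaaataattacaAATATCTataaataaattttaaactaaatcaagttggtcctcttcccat

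GSTF6, a glutathione transferase, went from 85.2, 91.0 and 88.5 FPKM to 40.3, 41.1 and 38.6 FPKM (-1.12 ± 0.04, SE, adjusted p = 2.18e-08), and was at 60.7 to 64.8 FPKM after 1 week. GSTF2 went from 366.0, 391.0 and 367.0 FPKM to 205.0, 198.0 and 202.0 FPKM. In the same class GSTF8 rose, from between 112.0 and 121.0 FPKM to between 229.0 and 231.0 FPKM, so members of 1 family stood on both sides. Over the 40 glutathione transferases tested, 1 rose (2 without individual replicate 3), 5 fell (12.5%) and 34 were not called. PR4, a chitin-binding pathogenesis-related protein, went from 10.1, 9.09 and 7.83 FPKM to 4.07, 3.68 and 4.01 FPKM, whereas its 1-week level was 18.1 to 24.5 FPKM. In a list of chitinases and legume lectins, added after values were seen, 2 of 16 rose (12.5%) and 4 fell (25%). The shares of all genes tested were 9.02% and 5.73%. The chitinase gene AT2G43620 fell by 1.08 and the legume lectin gene AT3G16530 by 0.86 on the log2 scale. Another legume lectin gene, AT5G03350, rose by 0.8 ± 0.04. A glutaredoxin gene, AT3G21460, went from between 14.6 and 19.3 FPKM to between 7.02 and 8.93 FPKM.

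**Figure D5:**
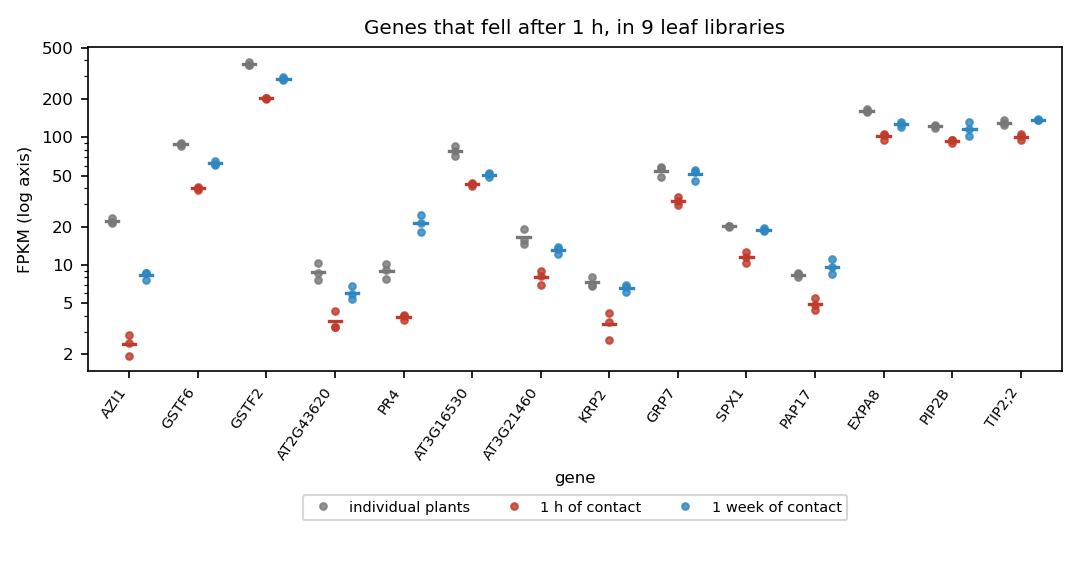
FPKM (log axis) of 14 genes that fell after 1 h, in individual plants (grey), after 1 h of contact (red) and after 1 week of contact (blue). Each point is 1 library and each bar the mean of 3; the red points of each gene lie below its grey points, from 9.24-fold lower in AZI1 to 1.29-fold lower in TIP2;2.

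Of 37 phosphate, iron and copper genes 3 rose (8.11%, and none without contact_1h replicate 2 or 3) and 6 fell (16.2%). The shares over all genes tested were 9.02% and 5.73%. SPX1, a phosphate sensor, went from 20.1, 19.7 and 20.3 FPKM to 10.3, 12.7 and 11.6 FPKM. PAP17, an acid phosphatase, and FRO4, a metal reductase, fell by 0.66 and 0.61 on the log2 scale. Of 22 aquaporins 1 rose (4.55%) and 6 fell (27.3%). PIP2B, a plasma membrane channel, went from 122.0 ± 2.91 FPKM (SD, n = 3) to 93.8 ± 3.43 FPKM (SD, n = 3), and TIP2;2, of the vacuole membrane, fell by 0.36 on the log2 scale. Glycine-rich proteins, a list added after values were seen, had 6 of 40 members rise (15.0%) and 11 fall (27.5%), including GRP-3, which went from between 859.0 and 1160.0 FPKM to between 621.0 and 640.0 FPKM.

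Clock genes had 2 of 27 members rise (7.41%) and 7 fall (25.9%), against 9.02% and 5.73% of all genes tested. GRP7, an RNA-binding protein under clock control, went from 57.0, 58.6 and 48.7 FPKM to 29.7, 33.9 and 31.6 FPKM (-0.77 ± 0.09, SE, adjusted p = 9.51e-05). TOC1, an evening gene, went from 3.24, 3.01 and 3.0 FPKM to 5.69, 5.22 and 5.97 FPKM, and RVE1, a morning gene, from between 11.2 and 12.5 FPKM to between 7.29 and 9.02 FPKM. The central morning genes were not called: CCA1 changed by -0.04 ± 0.04 and LHY by 0.14 ± 0.05 (adjusted p = 0.136). A difference in time of day at harvest was not tested.

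DREB1A, a cold-response regulator on the touch marker list, was the only member of that list called lower, at 5.39, 5.18 and 5.16 FPKM and then 3.2, 2.52 and 2.53 FPKM. Ribosomal protein genes had no rise among 315 tested (2 with either other scaling, without a trend in the variance or without individual replicate 2) and 47 falls (14.9%), each of less than 0.5 (log2), with a median over the list of -0.1 and AT5G39850 at -0.44 ± 0.12. The count of 47 was 11 without a trend in the variance, 24 to 31 with any 1 library but individual replicate 3 left out and 60 with that library left out. Photosynthesis genes had no rise (2 with quantile normalization, where the median was 0, and 1 without individual replicate 2) and 7 falls among 73 tested (9.59%). LHCB6, a light-harvesting protein, went from 5400.0, 5920.0 and 5190.0 FPKM to 4770.0, 4920.0 and 4870.0 FPKM, a call lost in 6 of 15 alternatives. The falls among photosynthesis genes numbered 1 without a trend in the variance, 2 without contact_1h replicate 1, 3 without contact_1h replicate 3, 4 without individual replicate 2 and 11 without individual replicate 3. UDP-glycosyltransferases had 5 of 78 members rise (6.41%) and 10 fall (12.8%), the latter numbering 3 to 6 with any 1 library left out and 12 with only the 6 libraries compared. Sulfate assimilation genes were at 1 rise (3.85%) and 2 falls (7.69%) among 26, against 9.02% and 5.73% over all genes tested. Without contact_1h replicate 3 or individual replicate 1 there was none of either.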

How the data were processed

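RNA sequencing values of 9 leaf libraries (3 per group) were used as deposited, as FPKM per gene; per the submitters' processing notes, Trim Galore 0.6.10, FastQC 0.12.1, HISAT2 2.2.1, SAMtools 1.18, Cufflinks 2.2.1 and Cuffdiff 2.2.1 were used with the TAIR10 build, in roles not given in the sources used here. The annotation is not given in the sources used here. Of 32824 gene identifiers, 32539 were matched to names, products and places in TAIR10.1 (RefSeq), and all columns of the table were used.

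Genes that reached an FPKM of 1 in 3 or more of the 9 libraries were tested on log2(FPKM + 1) with limma 3.58.1 in R 4.3.3 (1 mean per group over all 9 libraries, eBayes with trend, two-sided, Benjamini-Hochberg over all genes tested, called at an adjusted p under 0.05). The fit was tested on simulated data. Gene lists were written from family names, 8 of them after values were seen, and members and lists were chosen with earlier results of these data known. Named genes are the 15 largest rises (without touch, jasmonate and salicylate markers) and 15 largest falls among called protein-coding genes with a mean of at least 5 FPKM in the higher group and no overlap of replicates, and the 4 largest changes of each list under the same conditions; other named genes were chosen after their values were seen or define a list that is not called. 1 gene named by the rule is not reported here. A list is described by its counts and median. FPKM carry no fragment totals, so no counting interval was computed. Alternatives changed the pseudocount, filter, scaling, libraries in the fit, variance trend and replicate block, and left out each library in turn.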

Additional observations from a re-analysis of the deposited data

How the results depend on the processing

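Under 15 alternatives, the 192 genes named by the rule kept their direction wherever they were tested, and 163 kept their call wherever they were tested; 3 of the 192 were not tested with the filter at an FPKM of 5. The genes called numbered 2533 in all, 1549 higher and 984 lower. Without a trend in the variance the lower calls numbered 628. The 12 falls of at least 1 numbered 28 with a pseudocount of 0.1 and 21 with only the 6 libraries compared. Leaving out 1 library at a time gave 1861 to 2278 genes called, 1261 to 1408 higher and 590 to 870 lower, with 377 to 391 rises and 10 to 17 falls of at least 1; the lower calls were 646, 632 and 590 without contact_1h replicate 1, 2 and 3 and 635 without individual replicate 1. Median-of-ratios scaling gave 1647 higher and 733 lower calls, and quantile normalization 1425 and 1055. The samples share only replicate numbers: same-numbered libraries of the 2 groups deviated together with an r of 0.0289, 0.0402 and 0.152, and individual replicate 2 correlated best with contact_1h replicate 1. With the replicate number as a block, 2331 genes were called, 1460 higher and 871 lower. The pseudocount and filter limit what can be seen of genes under 1 FPKM.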
